A study of Mus musculus with 13 samples.

Results

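The 6 genes that encode the conventional actins of the mouse, Actb, Actg1, Acta2, Actg2, Acta1 and Actc1, were followed through RNA immunoprecipitates of the related RNA-binding proteins IMP1 (gene Igf2bp1) and IMP2 (gene Igf2bp2) and through total RNA of cells that lack either protein. The genes were taken by symbol as the whole conventional actin family and are 6 of the 43629 genes counted. Actb (beta) and Actg1 (gamma) encode the cytoplasmic actins found in nearly all cells. Acta2 (alpha) and Actg2 (gamma) encode smooth muscle actins, Acta1 skeletal muscle alpha-actin and Actc1 cardiac alpha-actin.

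Actin monomers polymerise into the filaments that shape and move a cell, and the 6 proteins are nearly identical in sequence. The Actb message is the textbook example of a localised mRNA: its 3' untranslated region carries a "zipcode" that is bound by ZBP1, the chicken orthologue of IMP1, and that takes the message to the leading edge of fibroblasts and to growth cones. Transcription of the muscle-type actin genes depends on serum response factor (SRF), which binds CArG boxes in their promoters, and on its cofactors myocardin and the MRTFs, of which the MRTFs are held back by free actin monomers. Acta2 is made by smooth muscle cells and by contractile fibroblasts, while Acta1 and Actc1 are best known from skeletal and cardiac muscle.

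The study set out to compare the RNAs bound by IMP1 and IMP2 in mouse embryonic fibroblasts, connective tissue cells grown from embryos, here at embryonic day E12.5. Immunoprecipitation (IP) captures a protein on an antibody together with the RNA it holds. There were 3 libraries from IMP1 IP, 3 from IMP2 IP and 3 from IP with a control immunoglobulin (IgG IP), whose RNA is the background of the method. Total RNA was sequenced once each from IMP1 KO, IMP1 WT, IMP2 KO and IMP2 WT cells, where KO is a knockout of the named gene and WT is wild type. For the cells used in IP the labels name no genotype, and there is no account of how the knockouts were made or of whether the cells were pooled from several embryos. They do not say that the 3 libraries of an IP group came from separate cultures, so p-values measure the spread between these libraries, which may be technical.

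Gene counts ran from 11430002 to 21756430 per library, and a gene with 0 counts could still hold up to 0.1379 to 0.2625 CPM (counts scaled to a common library size), the equivalent of 3 counts. Levels below are CPM after TMM scaling, which adjusts libraries for differences in RNA composition, and are called normalised CPM. They are not divided by transcript length, so levels of a gene are compared between libraries and genes are not ranked by level. Reads outside annotated genes made up 9.667 to 9.742% of uniquely placed reads in IMP1 IP, 6.54 to 7.2% in IMP2 IP, 29.184 to 30.41% in IgG IP and 7.492 to 8.284% in total RNA. The IgG IP libraries therefore stood apart from the other 10 by this measure. The knockout labels were checked on the targeted genes: Igf2bp1 had 38 counts in IMP1 KO and 476 in IMP1 WT, and Igf2bp2 had 461 counts in IMP2 KO and 2512 in IMP2 WT. The summed level of 10 fibroblast markers was 21753 to 33134 CPM in the IP libraries and 32727 to 60057 CPM in total RNA, before TMM scaling. Lum, which encodes a matrix proteoglycan and is on that list, was at 0 to 0.0919 CPM in the IP libraries, against 6.39 to 227 CPM in total RNA. Most markers of the list were lower in IP than in WT total RNA, with counts given below, while a few, such as Pdgfra, were higher.

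Actb differed clearly between the proteins. The gene (ENSMUSG00000029580) lies on chromosome 5 at 142903115 to 142907976 in GRCm38.p6. It reached 3810, 3901 and 3754 normalised CPM in the IMP2 IP libraries, against 1906, 1922 and 1958 in the IgG IP libraries. All 3 IMP2 IP libraries were above all 3 IgG IP libraries. Actb was 1.98-fold higher in IMP2 IP, with 3822 ± 74.4 in IMP2 IP and 1929 ± 26.3 in IgG IP (SD, n = 3 each), a log2 fold change of 0.99 ± 0.0292 (SE; edgeR quasi-likelihood test, Benjamini-Hochberg adjusted p = 1.52e-17). Of the 14076 genes tested, 95.7% had a lower log2 fold change over IgG IP than Actb.

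In the IMP1 IP libraries, the same message was at 1646, 1653 and 1673 normalised CPM. These values lay below every IgG IP library, by a small margin. With 1657 ± 14.1 in IMP1 IP against 1929 ± 26.3 in IgG IP (SD, n = 3 each), Actb fell by 0.22 on the log2 scale in IMP1 IP (SE 0.0291; edgeR adjusted p = 9.17e-07), or 1.16-fold. As a relative level, the zipcode message was thus not above IgG IP in the IP of the protein whose orthologue is known to bind the zipcode. Normalised CPM compare the make-up of libraries and not the amount of RNA captured, so they do not settle whether IMP1 bound Actb. Compared directly, IMP1 IP held 2.31-fold less Actb than IMP2 IP, a log2 fold change of -1.21 ± 0.0293 (SE; edgeR adjusted p = 1.51e-19). The IMP1 and IMP2 comparisons with background use the same 3 IgG IP libraries.

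**Figure D1:**
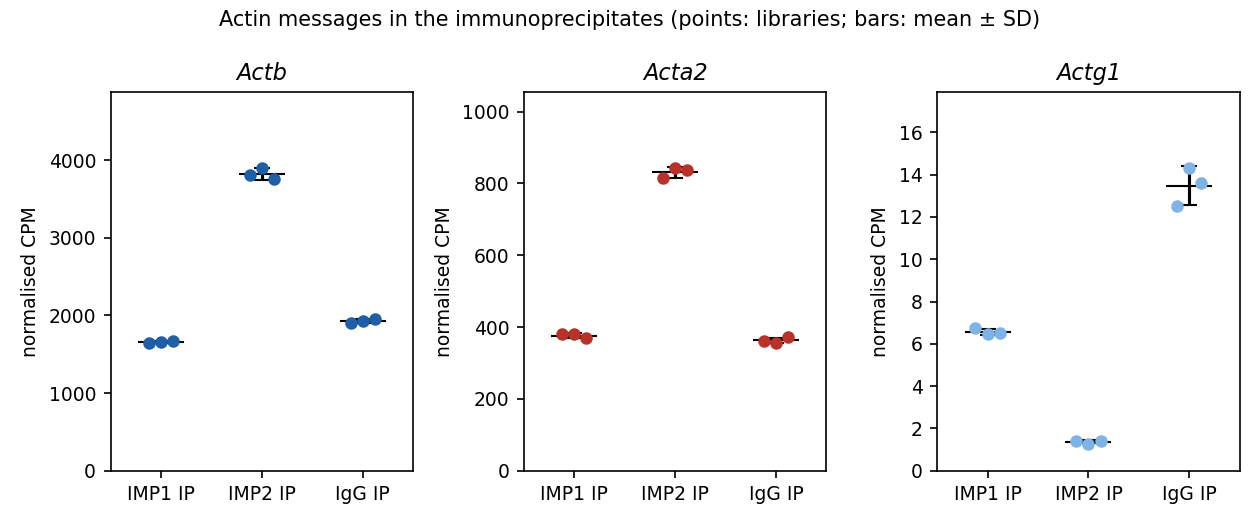
Normalised CPM (linear axes from 0) of Actb, Acta2 and Actg1 in each IP library: 3 points each for IMP1 IP, IMP2 IP and IgG IP, with the group mean ± SD as bars. Actb and Acta2 sit highest in IMP2 IP, where Actb averages 3822 and Acta2 832, and Actg1 sits lowest there, at 1.36.

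Acta2, the smooth muscle alpha-actin that also marks contractile fibroblasts, lies on chromosome 19 at 34240336 to 34255585 (ENSMUSG00000035783). Its levels were 813.9, 843.9 and 836.8 normalised CPM in IMP2 IP, against 362.5, 355 and 371.1 in IgG IP. The 2 groups did not overlap, and Acta2 was 2.29-fold higher in IMP2 IP, with 832 ± 15.7 against 363 ± 8.05 (SD, n = 3 each; log2 fold change 1.2, SE 0.0319, edgeR adjusted p = 2.84e-18). This placed Acta2 at rank 172 from the highest log2 fold change of the 14076 genes, and Actb at rank 612. In IMP1 IP, Acta2 was at 379.8, 379.8 and 369.7 normalised CPM. That range overlapped the IgG IP libraries, and the log2 fold change of 0.053 ± 0.0323 (SE) did not pass the test (edgeR adjusted p = 0.161). The IMP1 value depends on the scaling: the log2 fold change was -0.12 with upper quartile scaling and -0.10 with total count scaling. IMP1 IP held 2.21-fold less Acta2 than IMP2 IP (log2 fold change -1.14, SE 0.0316, edgeR adjusted p = 1.18e-18).

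The counts given to Actg1, the other cytoplasmic actin, went the opposite way to those of Actb in IMP2 IP. The gene (ENSMUSG00000062825) lies on chromosome 11 at 120345687 to 120348495. Its levels were 6.737, 6.442 and 6.493 normalised CPM in IMP1 IP, 1.421, 1.276 and 1.396 in the IMP2 IP libraries, and 12.52, 14.33 and 13.59 in IgG IP. No group overlapped another, and the background libraries were the highest. Actg1 fell by 3.30 on the log2 scale in IMP2 IP (SE 0.129; edgeR adjusted p = 1.24e-15), a 9.84-fold lower level, with 1.36 ± 0.0777 in IMP2 IP against 13.5 ± 0.907 in IgG IP (SD, n = 3 each). The fall in IMP1 IP was smaller. It fell by 1.04 (SE 0.102; edgeR adjusted p = 9.28e-09), with 6.56 ± 0.158 (SD, n = 3). IMP1 IP was 4.80-fold above IMP2 IP (log2 fold change 2.26, SE 0.143, edgeR adjusted p = 2.76e-12).

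The Actg1 counts are small and uncertain. They came to 114, 102 and 105 in IMP1 IP, 25, 29 and 34 in the IMP2 IP libraries, 174, 168 and 196 in IgG IP, and between 25 and 40 in the 4 total RNA libraries. The total RNA counts are very low for a cytoplasmic actin found in nearly all cells: Actb had 28852 to 64370 there. How much of the Actg1 message these counts hold was not tested. Reads that fit more than 1 place were not counted for any gene, and they made up 21.327 to 23.127% of reads in IMP1 IP, 26.496 to 28.188% in IMP2 IP, 17.232 to 17.328% in IgG IP and 38.434 to 40.881% in total RNA. The order of Actg1 over the IP groups is the same as that of the share of unique reads outside genes, highest in IgG IP and lowest in IMP2 IP. The part that either plays in the Actg1 values was not tested. The annotated gene Mir6935 overlaps Actg1, and a gene model overlaps Actb and another Actg2. The named actin copies Actbl2 and Actg-ps1 took at most 1 and 3 counts in any library.

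The muscle-type actins other than Acta2 were close to the floor in every IP library. Actg2 (ENSMUSG00000059430, chromosome 6 at 83512909 to 83536251) had 10, 4 and 6 counts in IMP1 IP, 13, 17 and 17 in the IMP2 IP libraries, and 8, 2 and 3 in IgG IP. Acta1 (ENSMUSG00000031972, chromosome 8 at 123891758 to 123894775) had 6, 4 and 6 counts in IMP1 IP, 11, 10 and 11 in the IMP2 IP libraries, and 6, 2 and 5 in IgG IP. Actc1 (ENSMUSG00000068614, chromosome 2 at 114047282 to 114052875) had 1 count in 1 IMP1 IP library and 0 in the other 8. Acta1 and Actc1 did not pass the filter on low counts and were not tested. Actg2 passed it only through the IMP2 IP libraries, where it was highest, so p-values of its comparisons with IMP2 IP are not support for a difference. Its log2 fold change in IMP2 IP over IgG IP was 1.15 ± 0.422 (SE; edgeR adjusted p = 0.0177), and DESeq2 gave 1.11 with an adjusted p of 0.1. Without 1 of the IgG IP libraries the edgeR value ranged from 0.90 to 1.89, and the call was lost without replicate 2 (0.90) or replicate 3 (0.90). For IMP1 IP over IgG IP it was 0.33 ± 0.504 (SE; edgeR adjusted p = 0.592).

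The calls are to be read against how common calls were. In IMP2 IP over IgG IP, 40.3% of the tested genes were called higher and 37.3% lower at an adjusted p under 0.05. Among the actins, Actb and Acta2 were called higher and Actg1 lower. Actg2 is left out of these tallies, since it entered the test only through the IMP2 IP libraries and its call was lost in several alternatives. At a 2-fold minimum as well, 4.04% of genes were called higher and 16.3% lower, and Acta2 and Actg1 met it while Actb, at 1.98-fold, did not. Against IgG IP, 31.7% of genes were called higher in IMP1 IP and 31.9% lower, with 0.583% higher and 12.4% lower by at least 2-fold. No actin was called higher there, Actb and Actg1 were called lower, and Actg1 met the 2-fold minimum by a narrow margin: its log2 fold change of -1.04 was -0.99 without IgG IP replicate 2 and -0.98 with no count filter. In IMP1 IP over IMP2 IP, 34.1% of genes were called higher and 37.3% lower, with Actg1 on the higher side and Actb and Acta2 on the lower. Genes whose libraries did not overlap between groups were also common, at 69.6%, 78.3% and 73.2% in the same 3 comparisons.

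**Figure D2:**
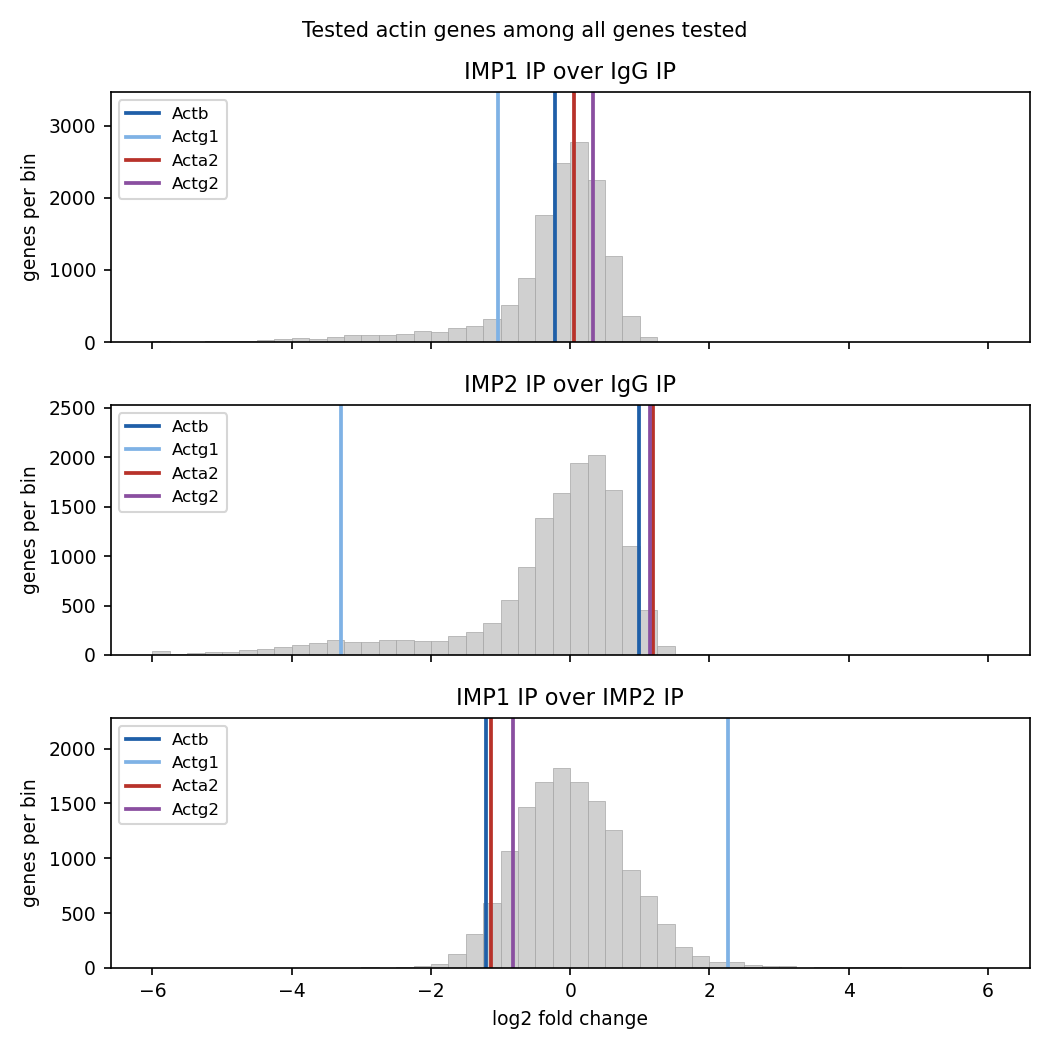
Number of genes at each log2 fold change (x axis; changes beyond 6 are drawn in the end bins) in IMP1 IP over IgG IP, IMP2 IP over IgG IP and IMP1 IP over IMP2 IP, with lines at the 4 tested actin genes. Over IgG IP, Actb lies at -0.22 and Acta2 at 0.053 in the IMP1 panel, inside the bulk of genes, while in the IMP2 panel they lie at 0.99 and 1.2 in the upper tail and Actg1 at -3.30 in the lower.

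The counts of the 6 genes were also taken as shares of their sum, to set each gene's part side by side across libraries. These shares are not per transcript length and do not rank the genes. Counts of Acta2 per count of Actb were 0.221 to 0.231 in IMP1 IP, 0.214 to 0.223 in IMP2 IP and 0.185 to 0.190 in IgG IP. Actb made up 81.2 ± 0.361% of the counts of the 6 genes in IMP1 IP, 82.1 ± 0.321% in IMP2 IP and 83.7 ± 0.191% in IgG IP (SD, n = 3 each). For Acta2 the shares were 18.4 ± 0.354%, 17.9 ± 0.322% and 15.7 ± 0.215% in the same order. Acta2 therefore took a larger part of the pool in both specific IPs than in background, by 2.71 percentage points (IMP1 IP) and 2.13 percentage points (IMP2 IP). An exact 2-sided permutation test gave p = 0.1 for each of these, the smallest that 3 libraries against 3 allow. For Actg1 the shares were 0.321 ± 0.00872% in IMP1 IP, 0.0293 ± 0.00213% in IMP2 IP and 0.585 ± 0.0384% in IgG IP (SD, n = 3 each), with no overlap and an exact permutation p = 0.1 in each comparison. For Acta2, the difference between IMP1 IP and IMP2 IP was 0.58 percentage points (exact permutation p = 0.2).

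Total RNA held a different pool. Acta2 had 3.34 counts per Actb count in IMP1 KO, 1.92 in IMP1 WT, 0.345 in IMP2 KO and 1.91 in IMP2 WT. Actb made up 20.9% of actin counts in the IMP1 KO library and 32.3% in the IMP1 WT library. It made up 74.0% in the IMP2 KO library and 32.8% in the IMP2 WT library. By the ratio of Acta2 to Actb counts, IMP2 KO stood below the other total RNA libraries and above all 9 IP libraries.

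**Figure D3:**
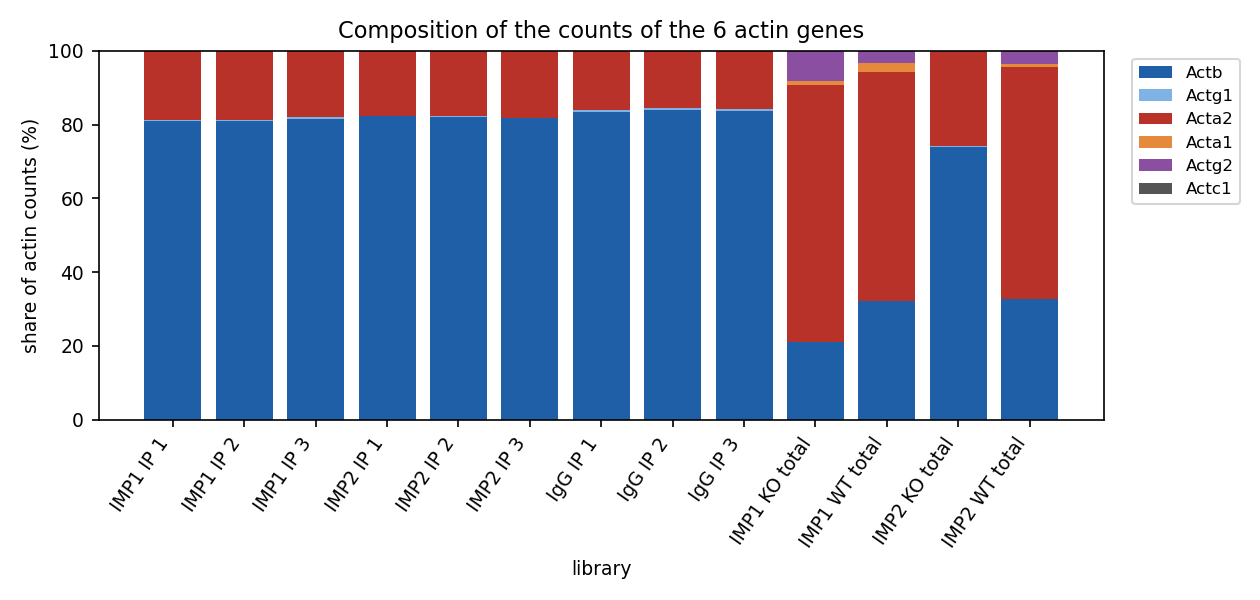
Share of the counts of the 6 actin genes (percent, bars from 0) taken by each gene in each of the 13 libraries. Actb takes 81.2 to 83.7% on average in the IP groups and 74.0% in IMP2 KO, against 20.9% in IMP1 KO and 32.3 and 32.8% in the WT libraries.

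The IP libraries were also set against the 2 WT total RNA libraries, taken as 1 WT group, in a separate fit of 16157 genes with its own scaling. Acta2 was at 384 to 398 normalised CPM in IMP1 IP, 814 to 860 in IMP2 IP and 357 to 376 in IgG IP, against 7522 in IMP1 WT and 5570 in IMP2 WT. It was lower in all 3 kinds of IP, 16.7-fold in IMP1 IP, 7.78-fold in IMP2 IP and 17.8-fold in IgG IP. Acta1 and Actg2 were lower still. Acta1 was at 0.172 to 0.626 normalised CPM over the 9 IP libraries, against 289 in IMP1 WT and 92.6 in IMP2 WT. Actg2 was at 0.172 to 0.754 over the same libraries, against 402 in IMP1 WT and 308 in IMP2 WT. Actc1, with 1 count over all IP libraries, had 33 counts in each WT library.

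Actb differed less between IP and total RNA. In this fit it was at 1728 ± 8.19 normalised CPM in IMP1 IP and 1950 ± 29.2 in IgG IP (SD, n = 3 each), against 3917 in IMP1 WT and 2911 in IMP2 WT. It fell by 0.98 in IMP1 IP (SE 0.0795; edgeR adjusted p = 1.82e-10) and by 0.81 in IgG IP (SE 0.0795; edgeR adjusted p = 5.06e-09) on the log2 scale. Without 1 library, the log2 fold change ranged from -1.17 to -0.75 in IMP1 IP and from -0.998 to -0.59 in IgG IP. Both ranges are wide next to the SE, so the SE and p-values of comparisons with WT may overstate their certainty. In IMP2 IP, Actb was at 3813, 3932 and 3859, values that overlapped the WT libraries. The log2 fold change of 0.18 ± 0.0807 (SE; edgeR adjusted p = 0.0458) did not hold: it was -0.012 without the IMP2 WT library and -0.011 with upper quartile scaling. In these comparisons 44.7% of genes were called lower in IMP1 IP, 41.6% in IMP2 IP and 44.4% in IgG IP, and 39.5% were called higher in IMP2 IP. Actb, Acta2 and Actg2 were called lower in IMP1 IP and in IgG IP, and Acta2, Actg2 and Actg1 in IMP2 IP. Acta1 and Actc1 passed the count filter of this fit only through the WT libraries, where they are high, so their lower levels in IP are given as values and not counted as calls. Actg1 was higher in IMP1 IP and IgG IP, by 1.66 and 2.65 on the log2 scale, against backgrounds of 41.4% and 43.7% of genes called higher. The 3 comparisons share the WT libraries.

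Markers other than actin also differed between IP and total RNA, with more smooth muscle and fibroblast markers called lower in IP than higher. The 8 smooth muscle markers summed to 208 to 209 CPM in IMP1 IP, 322 to 341 in IMP2 IP and 203 to 214 in IgG IP, against 6056 in IMP1 WT and 4281 in IMP2 WT. Cnn1, which encodes the smooth muscle protein calponin, was at 2.32 to 5.70 CPM over the IP libraries, against 629 in IMP1 WT and 548 in IMP2 WT. Col3a1, a fibroblast collagen gene, was at 42.6 to 91.1 CPM in the IP libraries, against 2550 in IMP1 WT and 4408 in IMP2 WT. Of 7 smooth muscle markers tested, 5 were called lower than WT in each kind of IP. In IMP1 IP, IMP2 IP and IgG IP, 2, 1 and 2 were called higher. Of 10 fibroblast markers, Lum among them, 6, 8 and 8 were called lower in the same order, and 3, 2 and 2 higher. Of all genes, 44.7%, 41.6% and 44.4% were called lower and 41.4%, 39.5% and 43.7% higher. The members named next were among the fewer that were higher in IP than in WT total RNA. Smtn, a smooth muscle cytoskeletal gene, was higher by 0.60, 0.31 and 0.43 on the log2 scale in IMP1 IP, IMP2 IP and IgG IP. Pdgfra, a growth factor receptor gene of fibroblasts, was at 263 to 430 CPM in the IP libraries, against 75.4 in IMP1 WT and 81.7 in IMP2 WT. Pdgfrb, its relative, was at 293 to 365 CPM in the IP libraries, against 209 in IMP1 WT and 254 in IMP2 WT. The labels do not tie the cells of the IP to either WT culture, and whether the IP and total RNA came from the same cells was not tested.

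In total RNA the knockouts differed in opposite ways for part of the actin family. Each genotype has 1 library, so no test was made. The ratios below are of normalised CPM from a scaling of the 4 total RNA libraries, with exact 95% intervals that cover counting error only. Actb was at 2492 normalised CPM in the IMP1 KO library and 4335 in the IMP1 WT library, a ratio of 0.575 (0.567 to 0.583). In IMP2 KO it was at 2127, against 3211 in IMP2 WT, a ratio of 0.662 (0.653 to 0.671). Both KO libraries were below both WT libraries for Actb, and the WT libraries themselves differed by about as much as IMP2 KO did from its own WT.

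Acta2 was at 8317 normalised CPM in the IMP1 KO library and 8326 in the IMP1 WT library, a ratio of 0.999 (0.990 to 1.01). In IMP2 KO it was at 734, against 6144 in IMP2 WT. That is 8.38-fold lower (8.22 to 8.54). The IMP2 KO library held by far the least Acta2 of the 4 and IMP1 KO lay beside its own WT.

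The muscle-type genes that were near the floor in IP were well counted here. Actg2 had 11209 counts in IMP1 KO and 6603 in IMP1 WT, or 968 against 445 normalised CPM, a ratio of 2.18 (2.11 to 2.24). In IMP2 KO it had 126 counts and in IMP2 WT 5787, or 7.68 against 340 normalised CPM, 44.2-fold lower (37.1 to 53.2). Actg2 was thus above both WT libraries in IMP1 KO and below both in IMP2 KO. Actc1 had 82 counts in IMP1 KO and 33 in IMP1 WT, a ratio of 3.19 (2.1 to 4.93) from few counts. In IMP2 KO it had 0 counts, against 33 in IMP2 WT. That is at least 8.14-fold lower by the exact interval, and 10.6-fold lower with the floor of 3 counts in place of 0.

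Acta1 was lower in both knockouts. Its level was 113 normalised CPM in the IMP1 KO library and 320 in the IMP1 WT library, a ratio of 0.354 (0.333 to 0.377). In IMP2 KO it was at 3.54, against 102 in IMP2 WT, 28.9-fold lower (22.2 to 38.2). The WT libraries differed widely for this gene, and the IMP1 KO value lay between them, so that only the IMP2 KO value was outside the spread of WT. Actg1 was at 2.68 normalised CPM in IMP1 KO and 2.42 in IMP1 WT, and at 1.52 in IMP2 KO and 2.35 in IMP2 WT. Both intervals of its ratio, 0.661 to 1.84 and 0.377 to 1.1, include no difference.

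**Figure D4:**
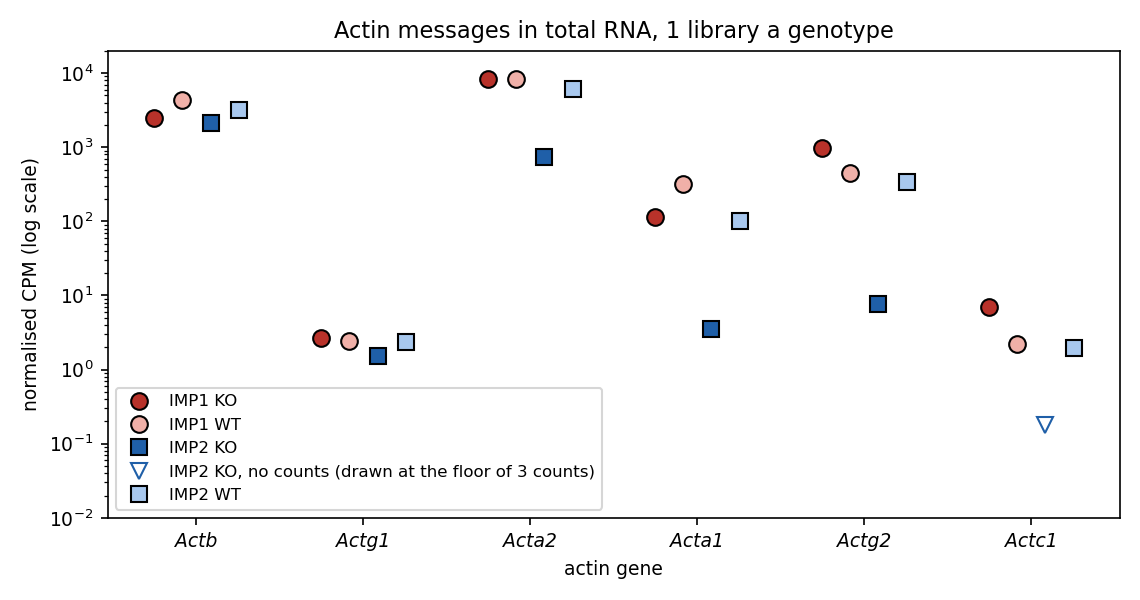
Normalised CPM (log axis) of each actin gene in the total RNA libraries, 1 point for each of IMP1 KO, IMP1 WT, IMP2 KO and IMP2 WT; the open triangle marks no counts, drawn at the floor. Every gene sits lowest in IMP2 KO, with Acta2 at 734 against 6144 in IMP2 WT and Actb at 2127 against 3211. Actg2 and Actc1, and Actg1 by a small margin, sit highest in IMP1 KO.

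Among the 10324 genes at 10 CPM or more in a total RNA library, 7.77% were higher and 7.84% lower in IMP2 KO than in IMP2 WT by 2-fold or more. Of the 4 actins at that level, 3 were at least 2-fold lower and none higher. In IMP1 KO, 5.71% of genes were at least 2-fold higher and 7.31% lower, and of the same 4 actins Actg2 was higher and Acta1 lower. Other smooth muscle genes moved beside the actins. Of 6 smooth muscle markers at 10 CPM or more, 5 were at least 2-fold lower in IMP2 KO and none higher. Together the 8 markers reached 767 CPM in the IMP2 KO library and 4281 in the IMP2 WT library. They reached 4301 CPM in the IMP1 KO library and 6056 in the IMP1 WT library. Cnn1 was 12.8-fold lower in IMP2 KO. Myh11, the smooth muscle myosin heavy chain, was at 3.92 CPM in the IMP2 KO library and 108 in the IMP2 WT library, and at 150 in the IMP1 KO library and 80.4 in the IMP1 WT library.

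Markers that specify skeletal muscle were at or near 0. Myod1, Myog and Myf5, which commit cells to that fate, were at 0 to 0.271 CPM in total RNA, and the cardiac myosin gene Myh6 at 0 to 0.0603. The 7 cardiac markers summed to 2.36 CPM in the IMP1 KO library and 6.03 in the IMP1 WT library, and to 2.59 in the IMP2 KO library and 5.57 in the IMP2 WT library. Tnnt2, a cardiac troponin gene, was at 1.22 CPM in the IMP1 KO library and 4.81 in the IMP1 WT library, and at 0.422 in the IMP2 KO library and 3.77 in the IMP2 WT library. The 10 skeletal markers summed to 5.07 CPM in the IMP1 KO library and 23.7 in the IMP1 WT library, and to 1.81 in the IMP2 KO library and 21.4 in the IMP2 WT library. Des, which smooth muscle also expresses, was the 1 skeletal marker to reach 10 CPM. The 6 macrophage markers summed to 264 CPM in the IMP2 KO library and 29.1 in the IMP2 WT library, and to 11.5 in the IMP1 KO library and 22.9 in the IMP1 WT library. All 6 were at 1 CPM or more in the IMP2 KO library, and all 4 at 10 CPM or more were at least 2-fold higher there than in the IMP2 WT library. Of the fibroblast markers, Pdgfra in IMP2 KO was at 3.74 times its IMP2 WT level, and Thy1 was 7.44-fold lower. In bulk RNA, fewer cells of a type and less RNA per cell cannot be told apart, and the part of cell make-up in the actin ratios was not tested.

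Promoters of the family are shown as a description, since SRF is known to bind CArG boxes of muscle-type actin genes. Whether SRF has a part in the knockout values was not tested. RefSeq gave windows of 250 bases upstream of the start for 4 of the 6 genes in GRCm38.p6, all on the minus strand, at chr11:120348496-120348745 for Actg1, chr19:34255374-34255623 for Acta2, chr8:123894776-123895025 for Acta1 and chr2:114052876-114053125 for Actc1. The Acta2 window is set by the start that the RefSeq table uses and lies mostly inside the annotated gene, downstream of its outermost end. The sequences read 5' to 3' towards the gene, and capitals mark every CArG box found, either perfect or with 1 mismatch in its 6 central bases.
Actg1: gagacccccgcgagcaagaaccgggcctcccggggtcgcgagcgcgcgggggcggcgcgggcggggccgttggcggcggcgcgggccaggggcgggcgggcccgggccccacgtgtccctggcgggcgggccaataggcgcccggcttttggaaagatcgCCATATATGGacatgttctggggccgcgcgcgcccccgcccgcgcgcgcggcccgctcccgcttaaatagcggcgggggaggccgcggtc
Acta2: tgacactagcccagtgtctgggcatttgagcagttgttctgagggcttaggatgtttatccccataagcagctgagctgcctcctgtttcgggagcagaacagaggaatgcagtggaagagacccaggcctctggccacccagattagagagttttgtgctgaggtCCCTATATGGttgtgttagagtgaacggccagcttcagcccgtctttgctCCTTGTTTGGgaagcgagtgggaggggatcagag
Acta1: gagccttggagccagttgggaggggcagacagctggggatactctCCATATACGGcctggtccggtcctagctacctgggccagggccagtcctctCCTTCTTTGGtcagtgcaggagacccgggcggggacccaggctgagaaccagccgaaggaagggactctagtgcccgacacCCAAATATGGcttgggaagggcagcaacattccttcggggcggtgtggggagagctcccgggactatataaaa
Actc1: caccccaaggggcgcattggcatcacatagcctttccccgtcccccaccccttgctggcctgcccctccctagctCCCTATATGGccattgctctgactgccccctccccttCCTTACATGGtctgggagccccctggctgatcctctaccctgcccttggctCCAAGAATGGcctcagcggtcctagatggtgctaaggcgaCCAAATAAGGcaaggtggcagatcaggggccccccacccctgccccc

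A perfect CArG box was present in the Actg1, Acta1 and Actc1 windows, 90, 73 and 47 bases before the start. Acta2 had no perfect box and 2 with 1 mismatch, 84 and 34 bases before the start. Acta1 had 2 further boxes with 1 mismatch (205 and 154 bases) and Actc1 had 3 (175, 138 and 87 bases). Both strands were searched, a box being its own reverse complement in form. Of 32851 RefSeq windows of the same length, 1.467% held a perfect box and 8.593% a box with at most 1 mismatch. The word TATAAA, found in 7.592% of windows, was present in Acta1. A matching stretch is a description of the sequence, and binding of SRF was not measured.

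The genes known to work with actin were described from 9 lists of 4 to 17 genes. In IMP2 IP over IgG IP, where 40.3% of all tested genes were called higher and 37.3% lower, genes that bind actin monomers, such as cofilin and profilin, were called higher in 10 of 11 cases and lower in none, with a median log2 fold change of 0.78 against 0.036 for all genes. Cfl1, which encodes the filament-severing cofilin, was at 1.35. Tmsb10, which encodes a monomer-holding thymosin, was at -0.27 and did not pass the test (edgeR adjusted p = 0.203). All 9 genes of the Arp2/3 complex, which starts branched filaments, were called higher, with a median of 0.74 and a range from 0.14 for Actr2 to 1.18 for Arpc4. Of 8 capping genes, whose products close filament ends, 7 were called higher and none lower (median 0.64, Capzb highest at 0.96). Of 17 genes that fold or modify actin, chiefly the CCT chaperonin and prefoldin, 16 were called higher and none lower (median 0.63, Pfdn1 highest at 0.84).

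Formins and other nucleation promoters, whose products start unbranched filaments or switch on Arp2/3, had 5 of 13 called higher and 6 lower in IMP2 IP (median -0.097), shares near those of all genes. They ranged from 0.48 for Spire1 to -0.81 for Diaph2. Of 17 SRF and MRTF targets, 12 were called higher and 1 lower, and the median was 0.64. The highest was Tagln2 (transgelin 2), at 1.16, and the 1 lower gene was Flna, which encodes the filament cross-linker filamin A, at -0.67. Among actin-related proteins, 8 of 10 genes were tested, 6 were called higher and 1 lower (median 0.63), led by Actr1a, an actin-like subunit of dynactin, at 1.07. The 8 zipcode-related factors gave 3 higher and 4 lower (median 0.017). Of SRF and its cofactors, Srf was called higher, at 0.34, while 2 of 3 tested genes were lower, with Mrtfb at -0.52. Over WT total RNA, where 39.5% of all genes were called higher and 41.6% lower in IMP2 IP, some lists went the other way. Called lower were 9 of 11 monomer binding genes, 8 of 9 Arp2/3 genes and 15 of 17 SRF and MRTF targets. Another 1, 1 and 2 were called higher. In IgG IP over WT (43.7% higher and 44.4% lower), these lists gave 11, 8 and 15 lower, and 0, 1 and 2 higher. Formins and nucleation promoters gave 9 higher and 3 lower of 13 in both comparisons.

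For IMP1 IP over IgG IP the lists are set against 31.7% of all genes called higher and 31.9% lower. The monomer binding list and the SRF and MRTF targets were near those shares. The medians were -0.085 for monomer binding (3 higher and 4 lower of 11), 0.047 for Arp2/3 (3 higher and 1 lower of 9) and 0.043 for capping (3 higher and 2 lower of 8), against -0.032 for all genes. Tmsb4x, which encodes the main monomer-holding thymosin, was lowest of the first list at -0.71. Of 13 formins and nucleation promoters, 9 were called higher and 1 lower (median 0.34), with Fmnl3 at 0.82. Folding and modification gave 9 higher and 3 lower of 17 (median 0.41), from 0.95 for Cct7 to -0.87 for Pfdn2. SRF and MRTF targets gave 7 higher and 4 lower of 17 (median -0.042), with Flna highest at 0.79 and Egr1, an immediate-early transcription factor gene, lowest at -0.78. Actin-related proteins gave 7 higher and none lower of 8 (median 0.33), SRF with its cofactors 3 higher of 3 (median 0.36), and zipcode factors 5 higher and 2 lower of 8 (median 0.25).

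The direct comparison of IMP1 IP with IMP2 IP tested these differences gene by gene, with 34.1% of all genes called higher and 37.3% lower. Monomer binding genes were called lower in IMP1 IP in 10 of 11 cases and higher in none, with Pfn1, the profilin gene, at -1.64 on the log2 scale. All 9 Arp2/3 genes were lower, with Arpc2 at -1.37. Formins and nucleation promoters were called higher in IMP1 IP in 9 of 13 cases and lower in 3, with Daam1 at 1.12. SRF and MRTF targets were lower in 12 of 17 cases and higher in 2, from 1.46 for Flna to -1.85 for Tagln2. Actb, at -1.21, lay on the side of the monomer and Arp2/3 genes.

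**Figure D5:**
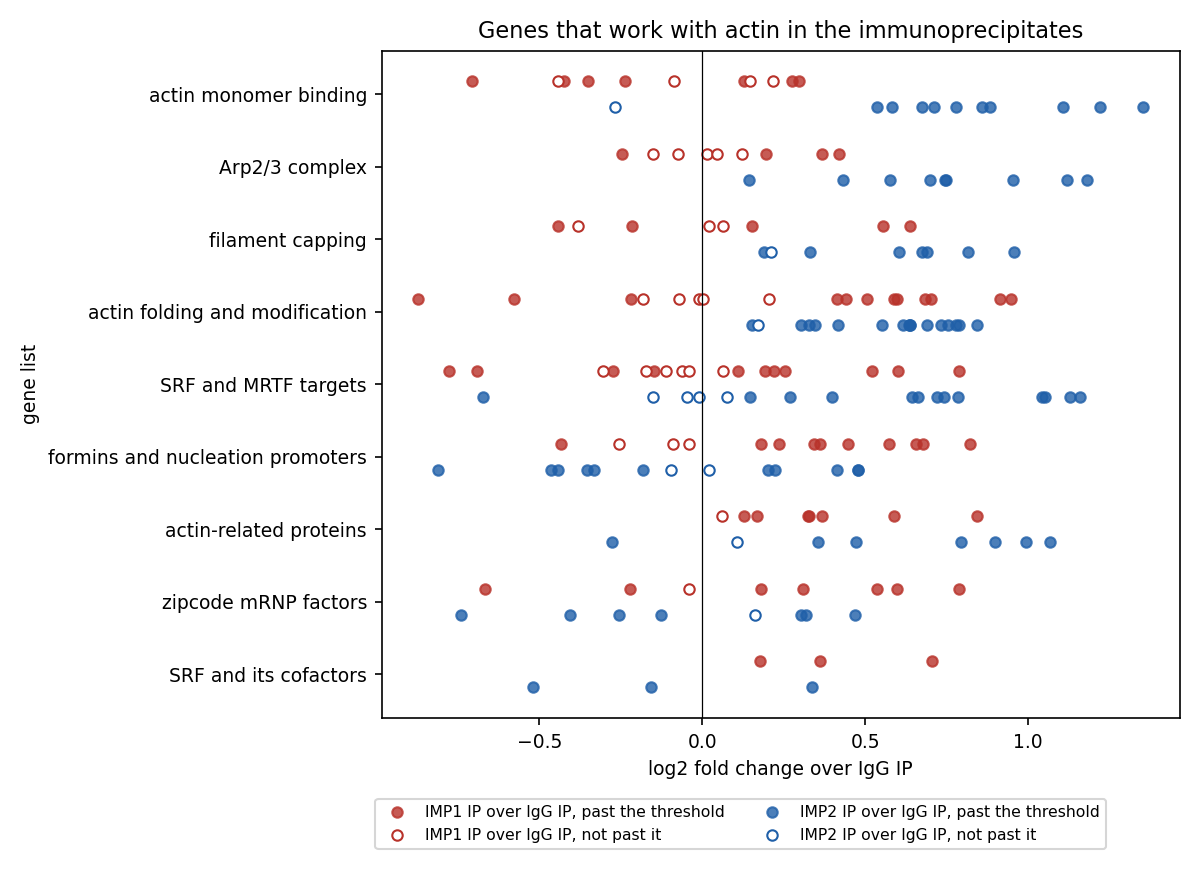
Log2 fold change over IgG IP (x axis) of each tested gene in 9 lists of genes that work with actin, in IMP1 IP (red) and IMP2 IP (blue); filled points passed the threshold of adjusted p under 0.05. All 9 Arp2/3 genes and 10 of 11 monomer binding genes are filled and above 0 in IMP2 IP, while in IMP1 IP the same lists spread around 0.

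The actin partner lists were also read in the knockouts, again with 1 library a genotype. Of the 10324 genes at 10 CPM or more, 7.77% were at least 2-fold higher and 7.84% lower in IMP2 KO, and 5.71% and 7.31% in IMP1 KO. In IMP2 KO, 4 of 11 monomer binding genes were at least 2-fold lower and none higher (median log2 ratio -0.76), with Cap2 3.57-fold lower. No Arp2/3 gene of 9 reached a 2-fold difference (median -0.55), nor did any of 17 folding and modification genes (median -0.31). Of 17 SRF and MRTF targets, 6 were at least 2-fold lower and 1, Fos, was higher, at 4.04 times its WT level. That list shares Tagln and Cnn1 with the smooth muscle markers. In IMP1 KO no monomer binding gene of 11 and no Arp2/3 gene of 9 reached a 2-fold difference, and 2 of 16 SRF and MRTF targets were higher and 4 lower. Of 7 capping genes in IMP1 KO, 3 were at least 2-fold lower and 1 higher. Eps8, which encodes a capping and bundling protein, was 12.4-fold lower, and Tmod3, which encodes a cap of slow-growing filament ends, was at 2.07 times its WT level. In IMP2 KO, 1 of 7 was lower and 1 higher. None of the 3 measured genes among SRF and its cofactors reached 2-fold in either knockout.

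Across the 13 libraries the levels of the muscle-type actins correlated strongly. The Pearson correlation of log2 levels was 0.988 between Acta1 and Actg2, 0.961 between Acta2 and Actg2 and 0.957 between Acta2 and Acta1. Actb correlated with Acta2 at 0.618 and with Actg1 at -0.728. These values describe 13 libraries that fall into IP and total RNA, so all the points share that split. Acta1 and Actg2 were near the floor in all 9 IP libraries, so the split weighs heavily in their correlations. Within total RNA the genes did not always move together. In IMP1 KO over IMP1 WT the ratio was 0.354 for Acta1, 2.18 for Actg2 and 0.999 for Acta2, while each was lower in IMP2 KO. Among 10389 genes, those most like Actb were Nadk (0.996), Slc25a5 (0.985), Rrp8 (0.984), Rrp7a (0.984) and Gnb1 (0.983). Most like Acta2 were Mmd (0.992), Fstl3 (0.991), Tubb3 (0.989), Bag2 (0.988) and E2f6 (0.987). For Acta1 they were Pmepa1 (0.993), Tpm2 (0.990), Cnn1 (0.988), Igfbp7 (0.988) and Pdk4 (0.987), and for Actg2 they were Hes1 (0.994), Ntf3 (0.991), Pmepa1 (0.990), Cnn1 (0.990) and Tpm2 (0.990). Tpm2 encodes a muscle tropomyosin that lies along actin filaments. Among the nearest to Actg1 were Rpl5 (0.966), Zfp692 (0.958), Prpf39 (0.952) and Dst (0.951).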

How the data were processed

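RNA was sequenced in 13 libraries, 9 from IP and 4 from total RNA. The authors deposited raw counts of reads for each Ensembl gene. STAR, HTSeq and mm10 are named in the submitters' processing notes, and versions and the strand setting are not given in the sources used here. The 5 closing lines of a file, which tally reads not given to genes, stayed out of library sizes and tests, and their shares are given with the results. Of 43629 genes, 42462 had a symbol and 32737 symbols matched RefSeq genes of GRCm38.p6, the source of positions and promoters.

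The 9 IP libraries entered 1 quasi-likelihood fit in edgeR 4.0.16 (R 4.3.3) with TMM scaling, the default count filter by group (14076 genes) and no covariate, and p-values are 2-sided and adjusted by Benjamini-Hochberg over all tested genes, with a threshold of 0.05. The IP libraries and the 2 WT libraries entered a second such fit (16157 genes), with slightly different normalised levels. The SE is the log2 fold change over the square root of F. The biological coefficient of variation was 3.84% and 5.92%. KO libraries have no replicates, so ratios carry exact 95% counting intervals only. Named genes were the 6 actins, the highest and lowest members of each list or members that define it, and the 5 genes most like each actin, of which not every gene is reported here; Col3a1, Lum, Pdgfrb, Tnnt2 and Myh11 were picked with their values already known. The actins and the lists were chosen with earlier results of these data known. Alternatives were DESeq2 1.42.0, other scalings and filters, the replicate number as a block and leaving out each library. The edgeR step was checked on simulated data. Floors and intervals cover counting error only. Where counting did not use the strand, reads of overlapping genes cannot be told apart.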

Additional observations from a re-analysis of the deposited data

Results flagged for a closer look

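The knockouts differed in opposite directions for 2 actin genes, with 1 library in each genotype. Actg2, the smooth muscle gamma-actin gene, had a ratio of 2.18 in IMP1 KO over IMP1 WT and of 0.0226 in IMP2 KO over IMP2 WT. Actc1, the cardiac alpha-actin gene, had a ratio of 3.19 in IMP1 KO over IMP1 WT. It was at least 8.14-fold lower in IMP2 KO than in IMP2 WT by the exact interval, and 10.6-fold lower with the floor of 3 counts. Neither difference between the knockouts was tested, since no genotype has a second library.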

How the results depend on the processing

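Most values were counted as the same: 307 of the values recomputed under another setting, and 464 of those recomputed without a library. For fold changes this means the same direction and side of the threshold. For gene totals, knockout ratios and share differences it means a value within a set margin of the main one. A value outside that margin is called moved. The exceptions were 18 moved, 5 reversed, 3 stronger and 4 weaker values under other settings, and 2 reversed, 3 stronger and 11 weaker values without a library. The cause of these changes was not tested.

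In IMP1 IP over IgG IP, Acta2 was -0.12 with upper quartile scaling, -0.10 with total count scaling, -0.089 with a minimum of 10 CPM and 0.11 with no filter, all past the threshold, and 0.043 to 0.076 without 1 library (0.066 and past the threshold without IMP2 IP replicate 1). Actg2 there was -0.045 to 1.07 without 1 library, with the negative value without IMP1 IP replicate 1. In IMP2 IP over IgG IP, Actg2 was 1.11 by DESeq2 and 0.90 to 1.89 without 1 library. In IMP1 IP over IMP2 IP, Actg2 was -1.14 with total count scaling and -1.20 to -0.59 without 1 library. In IMP2 IP over WT total RNA, Actb was 0.12 by DESeq2, 0.12 with its size factors, -0.011 with upper quartile scaling, 0.076 with a minimum of 10 CPM and -0.012 to 0.42 without 1 library, and the summed actins were at -1.16.

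Upper quartile scaling moved the median log2 fold change of all genes by -0.17 in IMP1 IP and -0.18 in IMP2 IP over IgG IP, and total count scaling by -0.15 and 0.17, and by -0.32 in IMP1 IP over IMP2 IP. Actb kept its direction, at -0.39 and -0.37 in IMP1 IP and 0.81 and 1.16 in IMP2 IP over IgG IP under these 2 scalings. Genes called higher were 4457 in IMP1 IP over IgG IP, or 49.8% of calls, against 2952 (31.6%) with upper quartile scaling and 33.3% with total count scaling. In IMP2 IP over IgG IP, 51.9% of calls were higher, against 39.9% and 62.2%. In IMP1 IP over IMP2 IP, 47.7% were higher, against 2908 genes (27.8%) with total count scaling. A minimum of 10 CPM, which tests fewer genes, gave 3761 higher and 3479 lower in IMP2 IP over IgG IP, against 5674 and 5253. With that minimum, 4441 genes were lower in IMP2 IP over WT, and 4519 higher and 4700 lower in IgG IP over WT, against 6724, 7062 and 7174.

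In total RNA, upper quartile scaling gave IMP1 KO ratios of 0.558 for Actb and 0.970 for Acta2. Against the mean of both WT libraries, the IMP1 KO ratios were 0.660 for Actb, 1.15 for Acta2, 0.537 for Acta1 and 2.47 for Actg2, and the IMP2 KO ratios were 0.564 for Actb, 0.101 for Acta2 and 0.0167 for Acta1. The summed actins had ratios of 0.886 in IMP1 KO and 0.293 in IMP2 KO.

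The replicate numbers did not pair the IP libraries: over 9 pairs of the same number, deviations from the group means correlated at -0.0587 to 0.0733, and 2 of 9 libraries correlated best with their own number. With the replicate block, Actg2 in IMP1 IP over IMP2 IP was -0.86, given as a value only, since it entered the fit through IMP2 IP. Genes called higher and lower in the 3 IP comparisons with the block numbered 4494 and 4523, 5699 and 5262, and 4799 and 5268. The planned division of shares by transcript length was not run, as lengths were not used here.

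Depth limits Actc1, Acta1 and Actg2 in IP and Actg1 in every library, where counts are few. KO values rest on 1 library a genotype, and TMM scaling assumes that most genes do not differ.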
